A study of Homo sapiens with 6 samples.

Results

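The 55 genes described here act when a cell passes from G2 into mitosis and divides: mitotic kinases and their cyclins, the spindle checkpoint, the kinetochore, the chromosomal passenger complex, regulators of the anaphase-promoting complex (APC/C), spindle and cytokinesis proteins, and condensin. They were chosen by name from knowledge of the cell cycle, with earlier results of these data known. Each of the 55 symbols matched 1 of the 61860 Ensembl gene rows of a table of RNA-seq read counts. The table holds 6 libraries of total RNA from 5637, an established human bladder cancer cell line. In 3 libraries the cells were labelled siYTHDC1, taken to mean knockdown of YTHDC1, the gene of a nuclear reader of N6-methyladenosine in RNA, and in 3 they were labelled siNC, the control of that silencing. All cells grew under the same culture conditions and were described as transfected or infected, and the labels mention a plasmid, so the reagent is not clear; no time after treatment is given. All libraries come from 1 cell line, and nothing states that replicates were separate cultures, so the spread that p-values are set against may be technical.

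Entry into mitosis is driven by the kinase CDK1 bound to cyclin B, which CDC25 phosphatases activate and which PLK1 and the Aurora kinases assist. The checkpoint then holds the APC/C activator CDC20 until every kinetochore is attached, after which APC/C with CDC20 marks cyclin B and securin for destruction. Transcripts of most of these genes peak together late in the cycle: the MuvB complex, with B-MYB (MYBL2) and then FOXM1, activates their promoters through a short element, the cell cycle genes homology region (CHR), often beside CCAAT boxes bound by NF-Y. Such transcripts are widely used as a measure of how many cells in a culture are dividing. In bulk RNA a smaller share of cells in G2 and mitosis and less RNA per such cell cannot be told apart.

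To show what these promoters share, the 150 bases before the RefSeq start on GRCh38.p14 are given 5′ to 3′ for 6 genes that fell, rose or were not called. Capitals mark the CHR words TTTGAA or TTTAAA and the word CCAAT, searched on both strands, so that CCAAT on the other strand reads ATTGG. CCNB1 (chr5:69167000-69167149, + strand), PLK1 (chr16:23678739-23678888, +) and CDC20 (chr1:43358831-43358980, +) fell. CCNB2 (chr15:59104996-59105145, +) was not called, and CENPA (chr2:26785906-26786055, +) and MYBL2 (chr20:43666964-43667113, +) rose.
CCNB1: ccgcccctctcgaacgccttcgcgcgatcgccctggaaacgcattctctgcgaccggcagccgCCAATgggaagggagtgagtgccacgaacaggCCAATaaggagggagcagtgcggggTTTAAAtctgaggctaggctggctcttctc
PLK1: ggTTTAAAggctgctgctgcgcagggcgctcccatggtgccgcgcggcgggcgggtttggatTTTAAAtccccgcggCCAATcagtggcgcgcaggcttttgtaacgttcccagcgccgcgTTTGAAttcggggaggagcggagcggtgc
CDC20: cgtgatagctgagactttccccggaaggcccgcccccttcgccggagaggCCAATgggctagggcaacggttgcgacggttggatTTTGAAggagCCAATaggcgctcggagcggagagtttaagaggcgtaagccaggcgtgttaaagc
CCNB2: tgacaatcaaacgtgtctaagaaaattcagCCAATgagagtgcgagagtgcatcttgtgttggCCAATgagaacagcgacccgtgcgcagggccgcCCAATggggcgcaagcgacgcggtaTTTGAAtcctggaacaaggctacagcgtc
CENPA: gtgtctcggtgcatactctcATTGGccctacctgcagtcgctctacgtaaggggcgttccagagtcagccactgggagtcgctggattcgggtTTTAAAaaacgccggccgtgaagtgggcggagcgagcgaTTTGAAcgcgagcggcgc
MYBL2: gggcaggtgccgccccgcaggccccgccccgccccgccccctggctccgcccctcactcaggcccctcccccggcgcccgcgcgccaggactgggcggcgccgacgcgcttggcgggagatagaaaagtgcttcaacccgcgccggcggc
In CCNB1, PLK1, CDC20 and CCNB2 a CHR word stands downstream of at least 1 CCAAT box or between 2 of them. CENPA likewise holds 2 CHR words downstream of a CCAAT box, there on the other strand. MYBL2 holds neither word in these bases.

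Counts of the gene named in the label overlapped between the groups, which bears on every direction given here. YTHDC1 (ENSG00000083896) had 161, 18 and 14 counts in the libraries labelled siYTHDC1, replicates 1 to 3, against 50, 786 and 55 counts in those labelled siNC. The fitted change (log2 -2.20 ± 0.69, SE; edgeR adjusted p = 0.00864) rested on siNC replicate 2, without which it was 0.31 (edgeR adjusted p = 0.691). Directions therefore follow the labels: higher or lower in libraries labelled siYTHDC1 than in those labelled siNC. Total counts ran from 33223480 to 34858457 in the libraries labelled siYTHDC1 and from 34628360 to 35607577 in those labelled siNC. Of 14 urothelial and epithelial markers 11 reached 1 count per 1000000 counts (CPM), the uroplakin genes UPK1A, UPK2 and UPK3A being below it. Their summed level was 6805 to 6933 CPM in the libraries labelled siYTHDC1 and 11810 to 11969 CPM in those labelled siNC. Most of it came from keratin genes, with KRT19 alone averaging 2607 and 4442 CPM. Of the 12 tested, 7 fell (KRT5, KRT7, KRT8, KRT17, KRT18, KRT19 and GATA3) and 3 rose (EPCAM, TP63 and PPARG). CDH1 and UPK2 were not called. For comparison, 53.4% of all genes tested were called. Summed fibroblast markers were at 93.2 to 98.8 against 79.5 to 85.8 CPM, almost all of it COL1A1, with DCN at 0 in each library. Immune markers summed to 6.21 to 7.84 against 7.95 to 9.39 CPM, with CD3E and MS4A1 at 0 in each library, and endothelial markers to 6.00 to 7.51 against 5.52 to 7.79 CPM. What part these differences have in the values of the mitotic genes was not tested.

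The mitotic genes did not move as a block. In 1 fit across the 17372 genes that passed the low-count filter, all 55 were tested: 20 fell and 10 rose (edgeR adjusted p under 0.05, TMM-scaled CPM), and 25 were not called. Of all genes tested, 53.4% were called, 27.1% as lower and 26.3% as higher, so the share of mitotic genes called (54.5%) was near that background, with 36.4% lower and 18.2% higher. The counts per role given below are to be read against the shares of all genes tested. The median log2 fold change was -0.06, against 0.00 for all genes tested. In 21 mitotic genes every library labelled siYTHDC1 was below every library labelled siNC and in 11 every one was above, where 29.8% and 29.5% of all genes tested were so placed, 59.3% in either direction. Changes were small. Among the 52 genes at 2 CPM or more, log2 fold changes ran from -0.58 for CKAP2L to 0.51 for MYBL2, only 14 of the 30 called genes reached 0.25 in size, and the median coefficient of variation between replicates was 3.22% in libraries labelled siYTHDC1 and 3.04% in those labelled siNC.

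**Figure D1:**
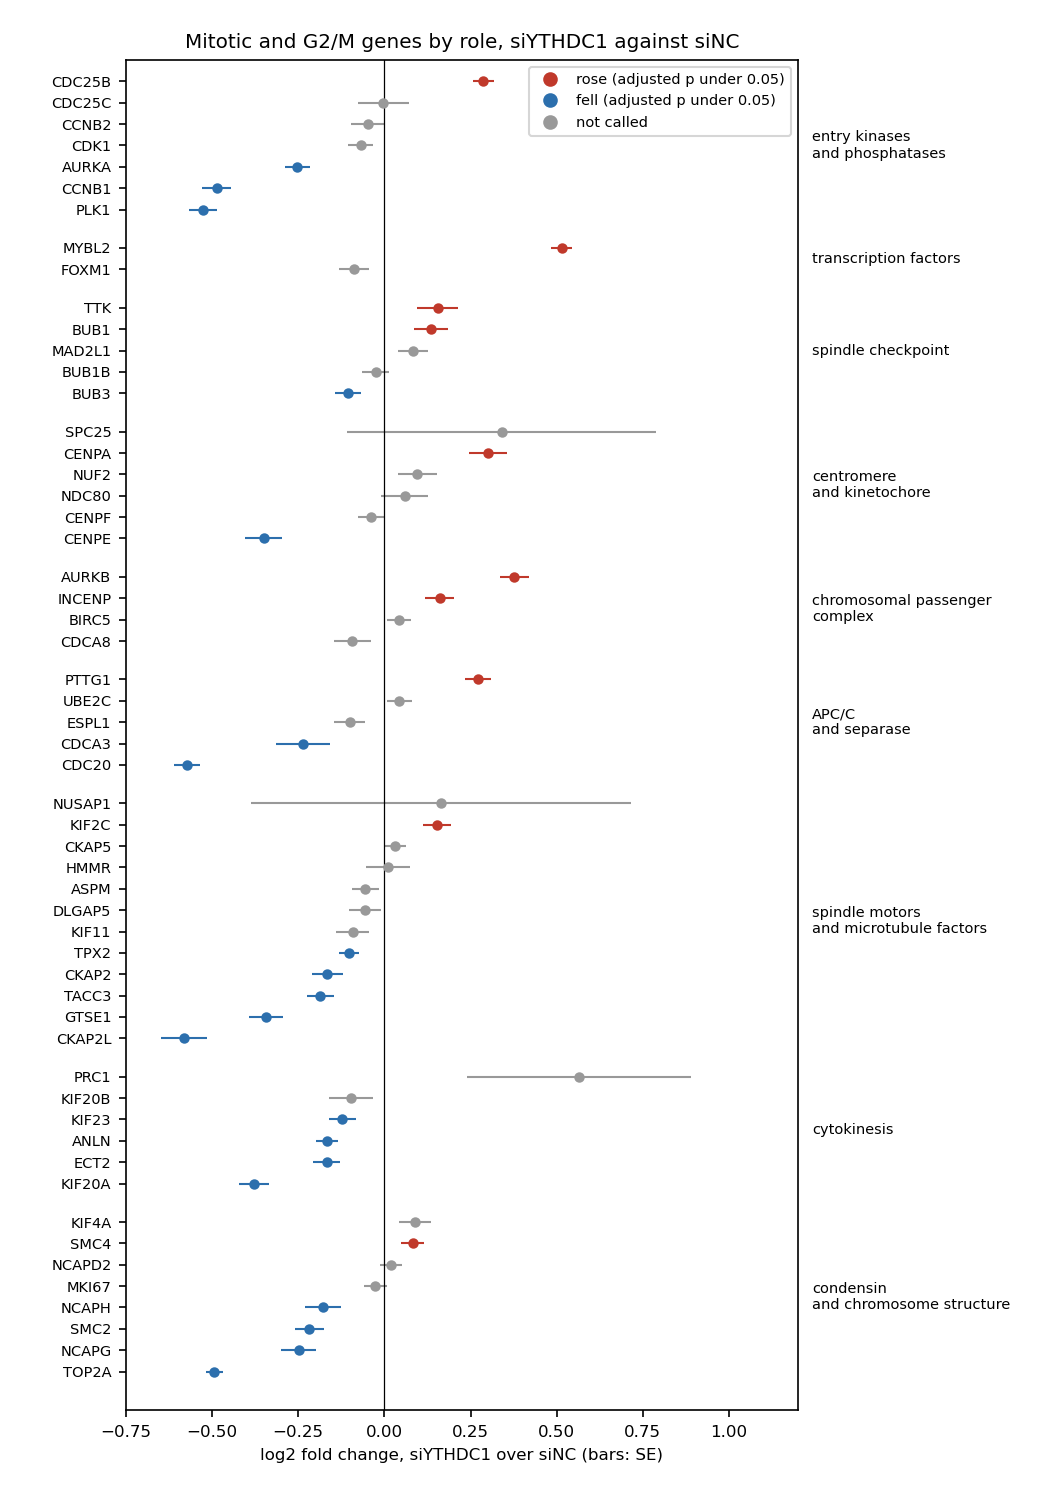
Log2 fold change of each of the 55 genes, libraries labelled siYTHDC1 over those labelled siNC, with SE as bars (3 libraries each), grouped by role and coloured by the edgeR call. Falls and rises stand side by side within most roles, called genes run from -0.58 for CKAP2L to 0.51 for MYBL2, and the 3 genes with wide bars (SPC25, NUSAP1 and PRC1, the last at 0.56) had under 2 CPM and were not called.

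The summed level of the 55 genes was 6633, 6697 and 6863 CPM in siYTHDC1 replicates 1 to 3, against 7074, 7045 and 7020 CPM in siNC replicates 1 to 3. It was thus lower in each library labelled siYTHDC1, by 315 CPM on average, a net of falls and rises in which abundant genes weigh most: the mean of TOP2A fell by 255 CPM and that of MYBL2 rose by 135 CPM. Without TOP2A the sums were 6018, 6079 and 6221 CPM against 6179, 6171 and 6147 CPM, and the groups overlapped. Without MYBL2, left out like TOP2A after the values were seen, they were 6188, 6231 and 6422 CPM against 6751, 6725 and 6715 CPM. Without both they were 5574, 5613 and 5779 CPM against 5857, 5852 and 5843 CPM, and the groups were apart, so the overlap depended on which gene was left out. Within the siYTHDC1 group, replicate 3 stood apart from the others: 40 of the 55 genes lay above their group mean there, against 17 in replicate 1 and 18 in replicate 2. Without it 24 genes fell and 7 rose. That fit called 8960 of all genes, against 9278 with all libraries, and their split by direction is not given here.

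Among the kinases and phosphatases of mitotic entry, 3 of 7 fell, 1 rose and 3 were not called. CCNB1 (ENSG00000134057, chr5:69167010-69178245, up to 9 exons), which encodes cyclin B1, was at 100.5, 114 and 110 CPM in siYTHDC1 replicates 1 to 3, against 153, 155 and 146 CPM in siNC replicates 1 to 3. The groups were well apart, and CCNB1 fell by 28.6% (log2 fold change -0.49 ± 0.04, SE; edgeR adjusted p = 1.45e-10). CCNB2 (chr15:59105078-59125045), the gene of cyclin B2, was at 94.7, 90.7 and 104 CPM against 104, 96.3 and 98.9 CPM. These overlapped and were not called (-0.05 ± 0.05, SE; edgeR adjusted p = 0.404), although CCNB2 passed without siYTHDC1 replicate 3 (-0.11; edgeR adjusted p = 0.0369, in a range up to 0.953 over the alternatives). The kinase gene CDK1 (chr10:60778331-60794852) was at 132, 132 and 128 CPM against 137, 138 and 136 CPM. Its groups were apart by a narrow margin and it was not called (-0.07 ± 0.04, SE; edgeR adjusted p = 0.101).

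PLK1 (chr16:23677656-23690367), the Polo-like kinase of mitotic entry and spindle assembly, was at 73.7, 72.9 and 74.0 CPM in siYTHDC1 replicates 1 to 3, against 109, 106 and 104 CPM in siNC replicates 1 to 3. It fell by 30.6%, with no overlap (log2 fold change -0.53 ± 0.04, SE; edgeR adjusted p = 1.75e-11), and 12.5% of its exonic bases lie under exons on the other strand. AURKA, the centrosomal Aurora kinase gene, was at 121, 118 and 126 CPM against 145, 143 and 147 CPM, and fell by 16.1% (edgeR adjusted p = 1.3e-06). CDC25B (chr20:3786772-3806121), a phosphatase that starts CDK1 activation at the centrosome, went the other way. It was at 397, 396 and 418 CPM against 340, 334 and 318 CPM (0.29 ± 0.03, SE; edgeR adjusted p = 7.81e-09). Its relative CDC25C had a log2 fold change of -0.003 ± 0.07 (SE) and was not called.

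The transcription factors of the programme differed as well. MYBL2 (ENSG00000101057, chr20:43667019-43716496, up to 14 exons), which encodes B-MYB, had the largest rise of the 30 called genes. It was at 444, 466 and 441 CPM in siYTHDC1 replicates 1 to 3, against 322, 319 and 304 CPM in siNC replicates 1 to 3, a rise of 42.9% (log2 fold change 0.51 ± 0.03, SE; edgeR adjusted p = 4.36e-14). FOXM1 (chr12:2857681-2877155) was at 71.8, 73.5 and 77.4 CPM against 78.1, 78.5 and 80.0 CPM. Each library labelled siYTHDC1 was slightly below each labelled siNC, but FOXM1 was not called (-0.09 ± 0.04, SE; edgeR adjusted p = 0.0989), except without siYTHDC1 replicate 3 (edgeR adjusted p = 0.029, in a range up to 0.311 over the alternatives). Of the exonic bases of FOXM1 15.9% lie under exons on the other strand, which matters if the counting ignored strand.

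Ratios within a library do not depend on how libraries are scaled. They are given for 4 pairs of partner genes that were chosen after their values were seen, as a description with no test. The ratio of CCNB1 to CCNB2 counts was 1.06, 1.25 and 1.05 in siYTHDC1 replicates 1 to 3, against 1.46, 1.61 and 1.48 in siNC replicates 1 to 3. That of AURKB to AURKA was 0.795, 0.803 and 0.795 against 0.522, 0.520 and 0.504, and that of MYBL2 to FOXM1 was 6.19, 6.34 and 5.70 against 4.12, 4.07 and 3.81. The ratio of CDC25B to CDC25C was 18.5, 18.2 and 19.9 against 15.6, 15.5 and 15.0. The pairs were picked with the difference between partners known, so these ratios restate the values above and support nothing further, and they are not divided by length.

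**Figure D2:**
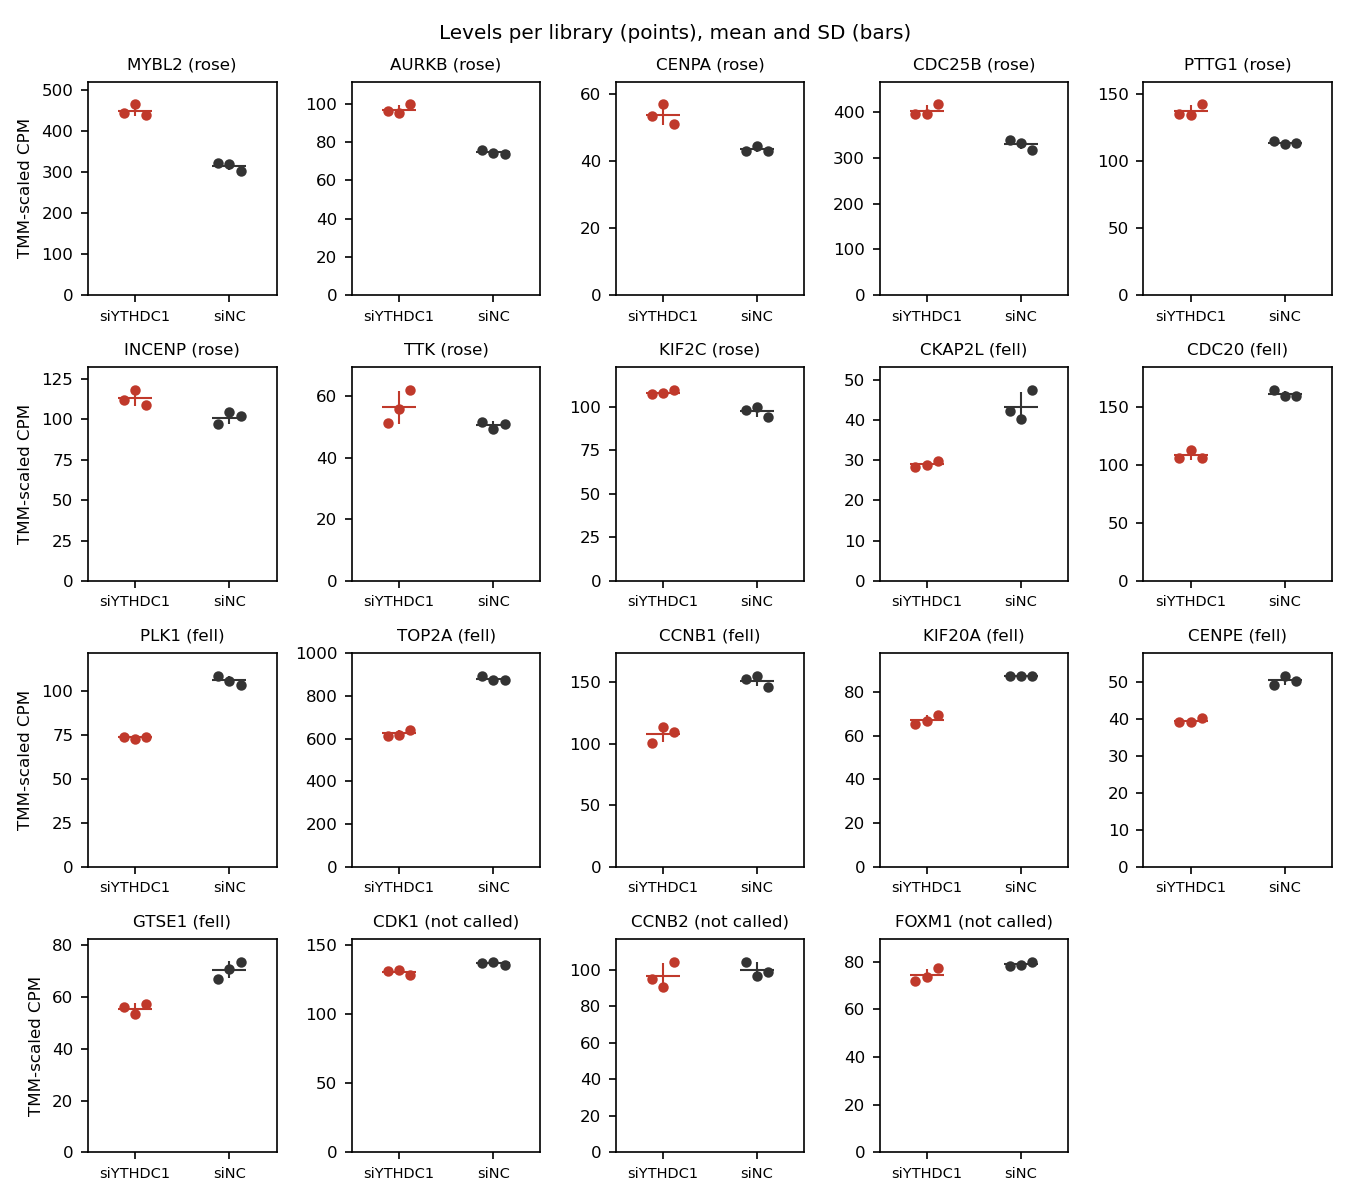
TMM-scaled CPM in each library (points) with mean and SD (bars) for the 8 largest rises, the 8 largest falls and the uncalled genes CDK1, CCNB2 and FOXM1, siYTHDC1 left and siNC right, each axis starting at 0. MYBL2 sits at 441 to 466 CPM in the libraries labelled siYTHDC1 and at 304 to 322 CPM in those labelled siNC, TOP2A at 615 to 643 and 873 to 894 CPM, and TTK and CCNB2 overlap.

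Of 5 spindle checkpoint genes 2 rose and 1 fell, all by small amounts. TTK (chr6:80003887-80042527), which encodes the kinase MPS1 at the head of the checkpoint, was at 51.2, 56.0 and 62.0 CPM in siYTHDC1 replicates 1 to 3, against 51.7, 49.4 and 50.9 CPM in siNC replicates 1 to 3. The groups overlapped and the call (log2 fold change 0.15 ± 0.06, SE; edgeR adjusted p = 0.0296) did not hold in 5 of 6 fits without 1 library, with an adjusted p of up to 0.278 without siYTHDC1 replicate 3. The checkpoint kinase gene BUB1 (0.14 ± 0.05, SE) and BUB3 (-0.10 ± 0.04, SE), whose product carries BUB1 to kinetochores, lost their calls in 4 and 2 of these 6 fits, BUB1 with an edgeR adjusted p of up to 0.171 without siNC replicate 1 and BUB3 of up to 0.133 without siYTHDC1 replicate 2. BUB1B and MAD2L1, which encode parts of the complex that holds CDC20, were not called (-0.03 ± 0.04 and 0.08 ± 0.04, SE).

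Of 6 centromere and kinetochore genes, 1 rose, 1 fell and 4 were not called. CENPA (chr2:26764289-26801067), the histone variant that marks centromeres, was at 53.2, 56.8 and 50.8 CPM in siYTHDC1 replicates 1 to 3, against 43.0, 44.5 and 43.0 CPM in siNC replicates 1 to 3. The groups were apart, and CENPA rose by 0.30 ± 0.06 on the log2 scale (SE; edgeR adjusted p = 4.02e-05). CENPE (chr4:103105806-103198409), a kinesin that brings chromosomes to the spindle equator, was at 39.1, 39.2 and 40.3 CPM against 49.3, 51.7 and 50.4 CPM and fell by 21.6% (edgeR adjusted p = 3.9e-06). CENPF (-0.04 ± 0.04, SE) and the NDC80 complex genes NDC80 (0.06 ± 0.07) and NUF2 (0.10 ± 0.06) were not called. SPC25, a further NDC80 complex gene, had 28, 19 and 19 counts against 19, 19 and 15 counts, too few for a log2 fold change of 0.34 ± 0.45 (SE) to be told from 0.

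In the chromosomal passenger complex, which corrects faulty attachments and then moves to the midzone, 2 of 4 genes rose. AURKB (chr17:8204733-8210600), its kinase, was at 96.1, 95.2 and 99.8 CPM in siYTHDC1 replicates 1 to 3, against 75.8, 74.4 and 74.0 CPM in siNC replicates 1 to 3, a rise of 29.9% (log2 fold change 0.38 ± 0.04, SE; edgeR adjusted p = 1.54e-08). INCENP (chr11:62123973-62153163), its scaffold, was at 112, 118 and 109 CPM against 96.8, 104 and 102 CPM (0.16 ± 0.04, SE; edgeR adjusted p = 0.00193). Both had groups that did not overlap. The other two subunits were not called, BIRC5 (survivin) with 0.04 ± 0.03 and CDCA8 (borealin) with -0.09 ± 0.05 (SE).

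Among the APC/C regulators, its targets and separase, 2 of 5 fell and 1 rose. CDC20 (ENSG00000117399, chr1:43358955-43363203, up to 11 exons), the activator that the checkpoint restrains, was at 106, 113 and 106 CPM in siYTHDC1 replicates 1 to 3, against 164, 159 and 159 CPM in siNC replicates 1 to 3. It fell by 32.8% (log2 fold change -0.57 ± 0.04, SE; edgeR adjusted p = 5.45e-13). PTTG1 (chr5:160421822-160428744), which encodes securin, the inhibitor of separase, was at 135, 134 and 142 CPM against 115, 113 and 113 CPM, a rise of 20.7% (edgeR adjusted p = 5.62e-07). The separase gene ESPL1 (-0.10 ± 0.05, SE; edgeR adjusted p = 0.0654) and UBE2C (0.04 ± 0.04), the ubiquitin-conjugating enzyme of the APC/C, were not called. CDCA3, whose product triggers mitotic entry, fell by 0.24 on the log2 scale with overlapping groups, and its call was lost in 3 of 6 fits without 1 library (edgeR adjusted p of up to 0.116, without siNC replicate 2).

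Of 12 spindle motor and microtubule genes 5 fell, 1 rose and 6 were not called. CKAP2L (chr2:112736607-112764677), which encodes a spindle protein, had the largest fall of all 55. It was at 28.2, 28.8 and 29.7 CPM in siYTHDC1 replicates 1 to 3, against 42.2, 40.3 and 47.4 CPM in siNC replicates 1 to 3, and fell by 33.2% (log2 fold change -0.58 ± 0.07, SE; edgeR adjusted p = 2.61e-08). GTSE1 (chr22:46296741-46330810), a microtubule-binding protein that also restrains p53, was at 56.1, 53.3 and 57.2 CPM against 67.0, 70.8 and 73.6 CPM and fell by 21.2% (edgeR adjusted p = 1.64e-06). TACC3, CKAP2 and TPX2, of which TPX2 activates Aurora A on the spindle, fell by 0.19, 0.17 and 0.10 on the log2 scale. KIF2C (chr1:44739818-44767767), a kinesin that takes microtubules apart at centromeres, was at 107, 108 and 109 CPM against 98.1, 99.6 and 93.8 CPM (0.15 ± 0.04, SE; edgeR adjusted p = 0.00195). KIF11, HMMR, DLGAP5, CKAP5 and ASPM were not called, with log2 fold changes between -0.09 for KIF11 and 0.03 for CKAP5.

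Of 6 cytokinesis genes 4 fell and the others were not called. KIF20A (chr5:138178719-138187715), the kinesin that carries the passenger complex to the midzone, was at 65.2, 66.8 and 69.3 CPM in siYTHDC1 replicates 1 to 3, against 87.3, 87.0 and 87.2 CPM in siNC replicates 1 to 3. It fell by 23.1% (log2 fold change -0.38 ± 0.04, SE; edgeR adjusted p = 3.1e-08). ECT2, the exchange factor that switches on RhoA at the cleavage furrow, ANLN (anillin) and KIF23, the kinesin of the centralspindlin complex, fell by 0.17, 0.17 and 0.12, and KIF23 lost its call without siYTHDC1 replicate 1 (edgeR adjusted p = 0.101). KIF20B had -0.10 ± 0.06 (SE). PRC1, the midzone bundling protein, had 61, 72 and 41 counts against 32, 33 and 55 counts, with overlapping groups.

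PRC1 and NUSAP1 share much of their annotation with other genes, and whether this bears on their low counts was not tested. In GENCODE release 29, 57.6% of the exonic bases of PRC1 and 62.2% of those of NUSAP1 lie under exons of other genes on the same strand, and 47.8% and 50.3% of their 75-base words recur in transcripts of other genes. The gene that shares most words with PRC1, ENSG00000284946, had 326, 359 and 285 counts in siYTHDC1 replicates 1 to 3, against 287, 320 and 337 counts in siNC replicates 1 to 3. NUSAP1 itself had 19, 9 and 16 counts against 22, 7 and 11 counts, and its sharing gene, ENSG00000285920, had none. Values of these 2 genes say little about their transcripts. SPC25 was as scarce with no exonic overlap in that release, and which annotation the counting used is not stated in the labels. BUB1B shares 6.34% of its words with BUB1B-PAK6, which had at most 6 counts in a library.

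Of 8 condensin and chromosome structure genes 4 fell and 1 rose. TOP2A (ENSG00000131747, chr17:40388516-40417950, up to 35 exons), the topoisomerase that untangles sister chromatids, was at 615, 618 and 643 CPM in siYTHDC1 replicates 1 to 3, against 894, 874 and 873 CPM in siNC replicates 1 to 3. It fell (log2 fold change -0.49 ± 0.02, SE; edgeR adjusted p = 1.47e-15). Among condensin genes, NCAPG, SMC2 and NCAPH fell by 0.25, 0.22 and 0.18 on the log2 scale, NCAPD2 was not called (0.02 ± 0.03, SE), and SMC4 rose by 0.08 ± 0.03 (SE), a call lost in 4 of 6 fits without 1 library (edgeR adjusted p of up to 0.254, without siNC replicate 3). NCAPG and SMC4 have 33.1% and 25.6% of their exonic bases under exons on the other strand. MKI67, which encodes the proliferation antigen Ki-67, was not called (-0.03 ± 0.03, SE), nor was KIF4A (0.09 ± 0.05, SE).

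Divided by exon length, the highest of the 55 genes were UBE2C, MYBL2 and TOP2A. UBE2C averaged 159 CPM per kilobase of exon in the libraries labelled siYTHDC1 and 154 in those labelled siNC, MYBL2 averaged 162 and 114, and TOP2A 97.1 and 137. MYBL2 was thus the highest in the libraries labelled siYTHDC1 and UBE2C in those labelled siNC. Across all 55 genes, Spearman's rho of the log2 fold change was -0.06 with level, -0.27 with exon length and -0.13 with exon number, and Pearson's r was -0.27, -0.16 and -0.14. Over the 53 genes at 1 CPM or more rho was 0.03, -0.20 and -0.08 and r was -0.15, -0.11 and -0.10. These are descriptions across genes that share the same 6 libraries.

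**Figure D3:**
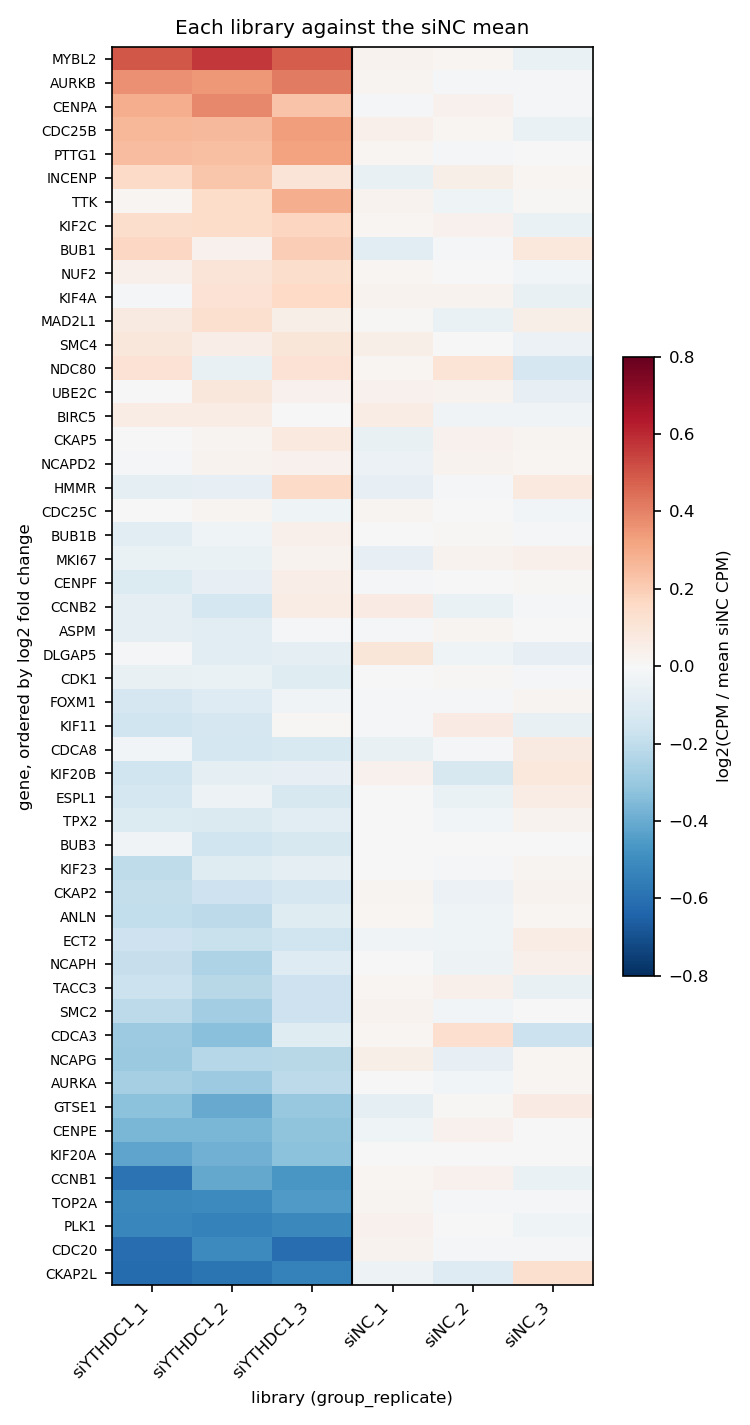
Log2 ratio of each library's CPM to the mean of the libraries labelled siNC, for the 52 genes at 2 CPM or more, ordered by log2 fold change, with siYTHDC1 replicates left of siNC replicates. The 3 columns labelled siYTHDC1 are alike at the top (MYBL2, 0.51) and bottom (CKAP2L, -0.58), while in the middle replicate 3 is often the highest of them.

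RefSeq promoters, from 250 bases before to 50 after the start, were at hand for 48 of the 55 genes, all but AURKA, BUB3, TTK, UBE2C, TPX2, BIRC5 and FOXM1. A CHR word was in 41 of the 48 (85.4%), against 24.3% of 27305 promoters of the same length, and CCAAT in 34 (70.8%) against 35.7%. Both words were in 32 (66.7%) against 9.49%. By call, CHR words were in 15 of 17 genes that fell, in 5 of 9 that rose and in 21 of 22 that were not called, and both words in 11, 3 and 18. Promoters with a CHR word, such as those of CCNB1 and CCNB2 printed above, were thus found among genes that fell, rose and were not called. A match is a string of letters and not a bound site.

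A further 134 genes of mitosis were grouped by role, of which 132 were tested: 48 fell (36.4%), 26 rose (19.7%) and 58 were not called, with a median log2 fold change of -0.06. Of all genes tested 27.1% fell and 26.3% rose, and 53.4% were called, so the share called among these genes was near that background, against which the counts per role are to be read as well. Genes named are up to 3 called genes per role with the largest changes, unless stated. Among 17 further entry regulators 7 rose and 5 fell. ENSA and ARPP19, whose products both block the phosphatase PP2A-B55 once Greatwall kinase phosphorylates them, moved in opposite directions: ENSA averaged 246 ± 1.15 CPM in the libraries labelled siYTHDC1 and 150 ± 2.07 CPM in those labelled siNC, and ARPP19 244 ± 6.49 and 328 ± 5.08 CPM (SD, n = 3 each). The log2 fold changes were 0.71 ± 0.03 and -0.43 ± 0.03 (SE; edgeR adjusted p = 1.28e-16 and 2.17e-12). CKS1B, a CDK subunit, rose by 0.54 ± 0.04, and 6.46% of its words recur elsewhere. CCNA2, the gene of cyclin A2, named after its values were seen, rose by 0.24 ± 0.04 (SE).

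Among 9 tested checkpoint genes, ZW10 (0.68 ± 0.08, SE), part of the complex that recruits dynein to kinetochores, rose, and 3 fell, MAD2L1BP by 0.68 and SPDL1 by 0.60 among them; MAD2L1BP helps to silence the checkpoint. Of 29 centromere and kinetochore genes 4 rose and 8 fell. SGO1, the guardian of centromeric cohesion, rose by 0.74 ± 0.11 and SKA2 by 0.59 ± 0.04 (SE), while MIS18A, needed to load CENP-A, fell by 0.66. Of 17 APC/C genes 8 fell and 1 rose: ANAPC2, its cullin subunit, fell by 0.42, ANAPC5 fell by 0.24 and ANAPC13 rose by 0.57 ± 0.06 (SE). Among 9 DREAM and MuvB genes 3 rose and 2 fell, with RBL2 (p130) up by 0.38 ± 0.04 (SE) and E2F4 down (-0.22 ± 0.05, SE). RBL1 (p107; 0.22 ± 0.07, SE) lost its call in 3 of 6 fits without 1 library (edgeR adjusted p of up to 0.0732, without siNC replicate 1). Exons on the other strand cover 17.7% of the exonic bases of SGO1, 13.0% of those of ANAPC13 and 18.2% of those of RBL2.

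Of 28 further spindle genes 10 fell and 4 rose. FAM83D, which brings casein kinase to the spindle, averaged 67.5 ± 3.27 CPM in the libraries labelled siYTHDC1 and 110 ± 1.76 CPM in those labelled siNC (SD, n = 3 each; log2 fold change -0.70 ± 0.04, SE; edgeR adjusted p = 1.63e-13). CEP55, a midbody protein of abscission, fell by 0.53, and HAUS4, an augmin subunit with 34.1% of its exonic bases under same-strand exons of other genes, rose by 0.49 ± 0.11 (SE). In cytokinesis 3 of 7 fell: ARHGAP11A by 0.99 from a low level, with 10.6% of its words shared with other genes, DEPDC1 by 0.20 and RHOA by 0.09, and the last pair lost their calls in 2 and 4 of 6 fits without 1 library (edgeR adjusted p of up to 0.12 without siNC replicate 3 and 0.137 without siYTHDC1 replicate 2). Of 16 cohesin and condensin genes 9 fell and 6 rose. TOP2B, the other type II topoisomerase, fell by 0.42 and NIPBL, the cohesin loader, by 0.36. NCAPG2 of condensin II rose by 0.40 ± 0.04 (SE), and of its other own subunits, named after their values were seen, NCAPD3 rose by 0.25 ± 0.04 (SE) and NCAPH2 fell by 0.23.

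A list of 24 genes of S phase, such as MCM helicase and replication factor genes, is set beside these for scale. Of these 16 fell and 8 were not called, with a median log2 fold change of -0.31. The 8 were the replication factor genes RFC3 and RFC4, and CDC45, CDC6, CDT1, RRM1, RRM2 and TYMS. Over the alternatives 15 or 16 fell, and 1 was called higher with upper-quartile scaling, with no scaling, with at least 1 CPM in 3 libraries, without siYTHDC1 replicate 1 and without siNC replicate 3. Its share of falls (66.7%) stood above the 36.4% of the mitotic genes and the 27.1% of all genes tested; the difference between the lists was not tested.

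**Figure D4:**
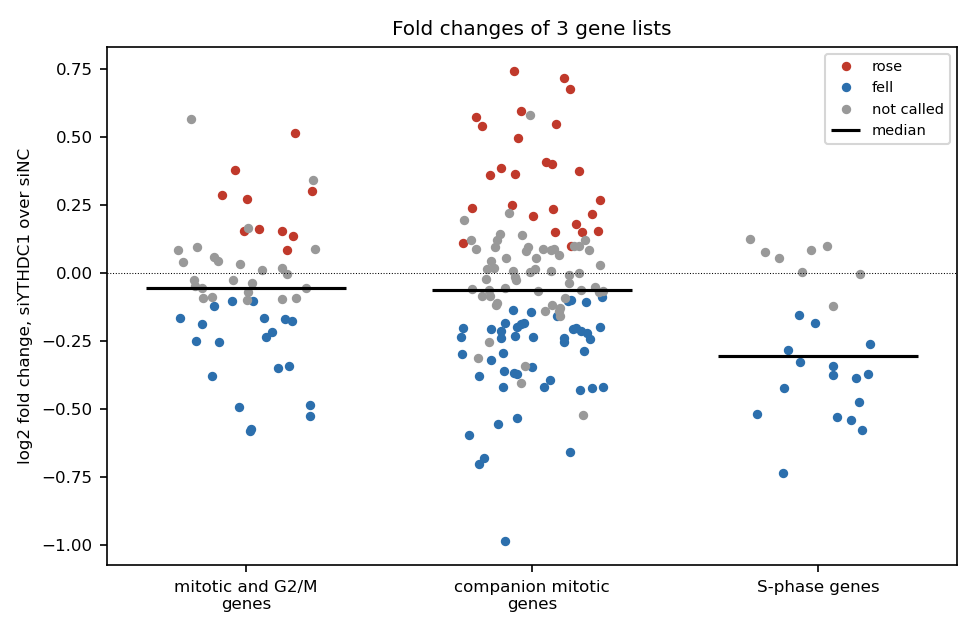
Log2 fold changes (vertical axis, libraries labelled siYTHDC1 over those labelled siNC) of the 55 mitotic and G2/M genes, the 132 tested companion genes and 24 S-phase genes, each point 1 gene coloured by its edgeR call, with the median as a line. The medians are -0.06, -0.06 and -0.31.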

How the data were processed

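The authors deposited raw counts per Ensembl gene, not normalized. Per the submitters' processing notes the genome build is hg38, and per the labels' protocols the library kit was directional; no source used here names the aligner, counter, annotation or strand setting. Columns were matched to libraries by name, and 0 were left unused. Columns named YTHDC1_NC were taken as siNC and those named YTHDC1_S1 as siYTHDC1, with the same replicate numbers. No source used here explains S1, so this match is an inference. Positions and exons are those of GENCODE 29.

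The counts were tested with edgeR 4.0.16 (quasi-likelihood, TMM, default low-count filter) in R 4.3.3, with group as the only term and Benjamini-Hochberg adjustment over all 17372 genes; adjusted p under 0.05 was called. Scripts were tested on simulated data. Alternatives were 3 other scalings (median-ratio, upper-quartile, none), DESeq2 1.42.0, limma-voom 3.58.1, no filter, at least 1 CPM in 3 libraries, a replicate block, and leaving out each library. Within each group, counts of replicate pairs differed on average by more than sampling noise (chi-square per degree of freedom 3.66 to 5.54). A few aberrant rows can raise such a mean, so it does not tell separate libraries or cultures from repeats.

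The genes, roles and lists were chosen with earlier results of these data known. Values per library are given for CDK1, CCNB1, CCNB2, PLK1, FOXM1 and MYBL2 and, of called genes averaging 1 CPM or more, the 8 that rose most and the 8 that fell most; others, such as AURKA, were added after their values were seen.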

Additional observations from a re-analysis of the deposited data

How the results depend on the processing

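Of the 30 called mitotic genes, 24 kept their call and direction under all 14 alternatives, and 6 (BUB1, BUB3, CDCA3, KIF23, SMC4 and TTK) lost the call in at least 1 fit that left out a library, SMC4 also without the low-count filter. Of the 25 uncalled genes 6 (CCNB2, CENPF, ESPL1, FOXM1, KIF11 and KIF4A) passed in at least 1 such fit. Leaving out 1 library gave 18 to 24 falls and 7 to 9 rises. The same fits called 8533 to 8960 of all genes, against 9278 with all libraries. The median log2 fold change of the mitotic genes then ran from -0.081 (without siYTHDC1 replicate 3) to -0.040. The cause of these shifts was not tested. For YTHDC1 such fits gave -4.17 to 0.31, and limma-voom gave -1.83 (limma adjusted p = 0.0861). CDC25C, near 0, was 0.0068 with upper-quartile scaling, 0.0071 with no scaling and 0.0014 with at least 1 CPM in 3 libraries. Uncalled genes that changed sign when 1 library was left out ran from -0.062 to 0.0031 for BUB1B, -0.018 to 0.0075 for CDC25C, -0.0066 to 0.12 for NDC80, -0.14 to 0.70 for NUSAP1, -0.070 to 0.050 for HMMR, -0.0012 to 0.051 for CKAP5 and -0.0087 to 0.034 for NCAPD2.

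No pairing of libraries by replicate number was seen: deviations of same-numbered libraries from their group means correlated at 0.0055, -0.0065 and -0.017 across genes. Such values do not show whether same-numbered libraries were cultured or prepared together. With the replicate block 20 mitotic genes fell and 10 rose, 47 and 29 companion genes, and 9227 genes were called, against 9278; the YTHDC1 value was -1.68 (edgeR adjusted p = 0.0366). At these depths, the 3 mitotic genes under 2 CPM (SPC25, NUSAP1 and PRC1) could not be judged.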
